A study of Arabidopsis thaliana with 4 samples.

Results

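The genes described here make and read salicylate, a plant defence hormone, in the inflorescence apex of Arabidopsis thaliana. They are 10 genes chosen by locus identifier for their known place in the pathway, out of 27322 gene models: ICS1, EDS5, SARD1, CBP60G, EDS1, PAD4, NPR1, PR1, PR2 and PR5. All 10 were measured. The mutant group, mp clv3, carried the alleles mp319 and clv3-7 together, and the wild-type group (WT) was the Col-0 accession. Apices were taken from 6-week plants, with older flowers removed. Both groups had 2 days of stratification and grew in a greenhouse at 22°C with 16 h of light and 8 h of dark. The design states 2 biological replicates per genotype, yet the table gives a single value per genotype, and whether that value pools the replicates is not stated. No single mutant was included, so effects of MP and of CLV3 cannot be told apart.

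Salicylate is made in Arabidopsis mainly through isochorismate. ICS1 makes isochorismate in the plastid, EDS5 exports it, PBS3 joins it to glutamate, and the conjugate breaks down to salicylate with the help of EPS1. The transcription factors SARD1 and CBP60G act on ICS1, and EDS1 with its partner PAD4 relays signals from immune receptors to the same branch. NPR1 binds salicylate and, with TGA transcription factors, turns on the pathogenesis-related genes PR1, PR2 and PR5, the usual markers of a salicylate response.

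The gene models held 103347441 reads in mp clv3 against 101878433 reads in WT. Of the mutated genes, MP, an auxin response factor gene, had 14.5 RPKM in mp clv3 against 46.1 RPKM in WT. CLV3, which encodes a stem cell peptide, had 1278 reads in mp clv3 against 2 reads in WT. Where the lesions lie in the transcripts is not known here, so these levels do not check the genotypes. RPKM is the read number corrected for gene model length and for sequencing depth, a level that can be compared between genes. Each fold difference comes with a 95% interval that covers counting error alone, because no spread between plants could be computed.

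All 10 genes had more reads in mp clv3 than in WT, by factors that ran from 1.31 for ICS1 to 1279 for PR2. By the authors' deposited table, 10 of 10 were higher with an FDR under 0.05, where 31.3% of all models were. A gene is referred to as called when it also differed at least 2-fold. By that rule 8 of 10 were called higher, against a background of 9.85% of all models, and 0 were called lower, against 21.3%. The test behind the FDR is not stated, so a call is no check against replicate spread. The genes were chosen with earlier results of these data known, so the comparison with all models is a description and no test. The median log2 ratio of mp clv3 over WT was 3.23 over the 10 genes, beside -0.15 over the models with more than 6 reads in either genotype. Together the 10 genes took 0.0797% of all reads in mp clv3 against 0.0132% in WT.

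**Figure D1:**
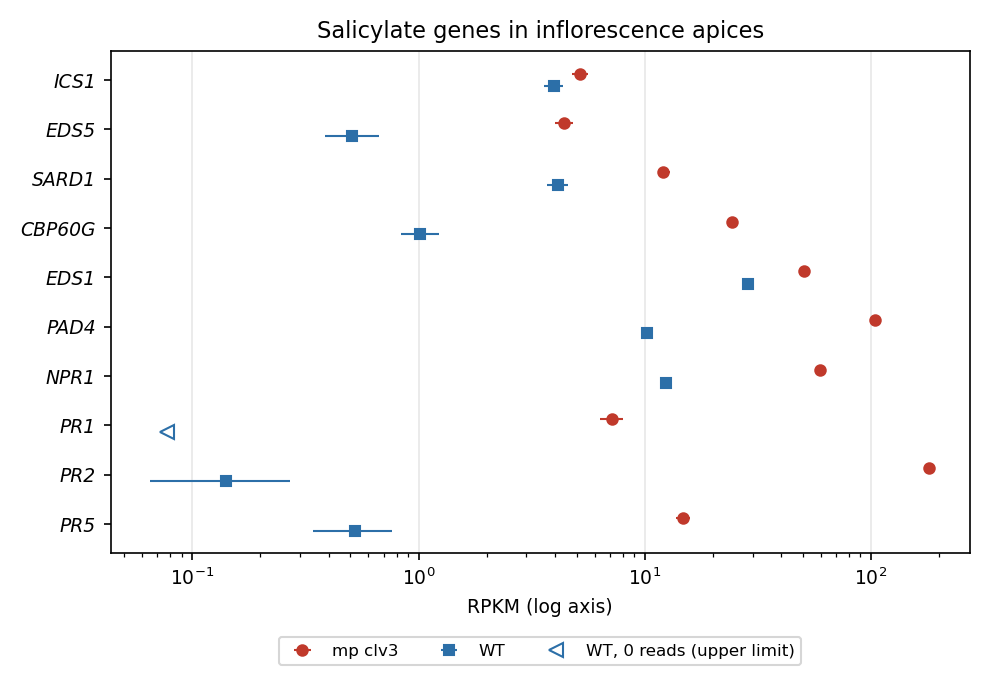
RPKM of the 10 salicylate genes on a log axis in mp clv3 (red circles) and WT (blue squares), with 95% counting intervals; the open triangle is the upper limit that 0 reads allow for PR1 in WT. Every gene lies further right in mp clv3, by a small gap for ICS1 (5.18 against 3.97 RPKM) and the widest for PR2 (181 against 0.141 RPKM).

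The order of the levels differed between the genotypes. In mp clv3, PR2 came first at 181 RPKM, followed by PAD4, NPR1, EDS1, CBP60G, PR5, SARD1, PR1, ICS1 and EDS5, and of these neighbours in the order only ICS1 and EDS5 had overlapping counting intervals. In WT, EDS1 came first at 28.7 RPKM, followed by NPR1, PAD4, SARD1, ICS1, CBP60G, PR5, EDS5, PR2 and PR1. There the intervals of SARD1 and ICS1 overlapped, as did those of PR5 and EDS5, and that of PR2 reached the limit that 0 reads allow for PR1. The signalling genes EDS1, NPR1 and PAD4 thus had the highest levels of the group in WT, with the pathogenesis-related genes near the bottom.

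In the main synthesis route, the transporter gene differed more than the enzyme genes ICS1, PBS3 and EPS1. ICS1 (AT1G74710), the isochorismate synthase gene, lies on chromosome 1 (plus strand, 28070295 to 28074177 in TAIR10.1) and has 12 exons. ICS1 had 1101 reads in mp clv3, a level of 5.18 RPKM, against 831 reads in WT, a level of 3.97 RPKM. That is 1.31-fold higher (1.15 to 1.49), with an FDR in the authors' deposited table of 8.38e-09, and short of the 2-fold criterion. EDS5 (AT4G39030, chromosome 4, 18185437 to 18189224, plus strand, 12 exons), the isochorismate exporter gene, had 922 reads and 4.39 RPKM in mp clv3 against 105 reads and 0.507 RPKM in WT. EDS5 was 8.66-fold higher (6.44 to 11.6). Its annotated span shares 213 bases with AT4G39040 on the other strand, which had 3741 reads in mp clv3 against 6143 reads in WT. The libraries were strand-specific, but whether counting used the strand is not stated. Reads of overlapping genes may therefore be mixed here and at other overlaps, not all of which are named further on.

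The later enzymes of the isochorismate route were, like ICS1, short of 2-fold. PBS3 had 5.50 RPKM in mp clv3 against 4.92 RPKM in WT, and the interval of its ratio, 0.988 to 1.26, includes equality. The authors' deposited FDR for PBS3, from a test that is not named, was nevertheless 0.0134. EPS1 had 9.91 RPKM in mp clv3 against 7.47 RPKM in WT, a ratio of 1.33 (1.19 to 1.48). The minor synthase gene ICS2 was 6.57-fold lower (4.27 to 10.6), with 0.251 RPKM in mp clv3 against 1.65 RPKM in WT. EDS5 was therefore the called gene among the 4 genes of the main route, ICS1, EDS5, PBS3 and EPS1, and with a pseudocount of 5 RPKM its log2 ratio of 0.77 was short of 2-fold as well.

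Phenylalanine ammonia-lyase, which opens the phenylpropanoid route to salicylate, is encoded by 4 genes that differed in both directions. PAL2 had the most reads of the synthesis genes that were not called, and its ratio was 1.56 (1.49 to 1.63). PAL4 was 16.7-fold lower (12.4 to 22.5), with 0.363 RPKM in mp clv3 against 6.07 RPKM in WT. Of the 7 synthesis genes beyond ICS1 and EDS5, 0 were called higher, against 9.85% of all models, and 2 lower, against 21.3%. Their log2 ratios were centred on a median of 0.16.

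Both transcription factor genes of the branch were higher, CBP60G by far the more. SARD1 (AT1G73805, chromosome 1, 27744790 to 27749248, minus strand, 7 exons) had 2114 reads and 12.1 RPKM in mp clv3 against 710 reads and 4.12 RPKM in WT. The ratio for SARD1 was 2.94 (2.60 to 3.32), and with a pseudocount of 5 RPKM its log2 ratio of 0.91 was short of 2-fold. Its span shares 640 bases with the opposite-strand gene AT1G73790, which had 912 reads in mp clv3 against 1046 reads in WT. CBP60G (AT5G26920, chromosome 5, 9475679 to 9478777, plus strand, 5 exons), the calmodulin-binding relative of SARD1, had 5219 reads and 24.3 RPKM in mp clv3 against 216 reads and 1.02 RPKM in WT. The ratio for CBP60G was 23.8 (19.6 to 29.2). CBP60G had the lower level of the pair in WT and the higher level in mp clv3.

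The calmodulin-binding family to which both belong was higher as well. By the authors' deposited table, all 8 listed genes of the family were higher with an FDR under 0.05, against 31.3% of all models. SARD1 and CBP60G count among the 8, of which 7 were called higher, against 9.85% of all models. The median log2 ratio of the 8 was 1.36, and without SARD1 and CBP60G the log2 ratios ran from 0.69 to 2.06. CBP60A, known as a negative regulator of immunity, was 2.05-fold higher (1.92 to 2.18) and shares 246 bases with an opposite-strand gene. AT4G31000 and AT2G24300, annotated as calmodulin-binding proteins, were 4.17-fold (3.68 to 4.71) and 4.04-fold (3.37 to 4.83) higher. The family member that was not called, AT2G18750, had 65.9 RPKM in mp clv3 against 40.8 RPKM in WT.

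Several WRKY factors tied to salicylate had higher levels than SARD1 and CBP60G in mp clv3. WRKY70, which acts downstream of salicylate, had 548 RPKM in mp clv3 against 67.8 RPKM in WT, a ratio of 8.09 (7.82 to 8.37). WRKY46, a defence-related factor, had 213 RPKM in mp clv3 against 2.00 RPKM in WT, a ratio of 106 (88.8 to 127). WRKY28, which acts on ICS1, had 4931 reads in mp clv3 against 24 reads in WT, a ratio of 203 (116 to 393). These ratios exceed that of ICS1 itself by far. WRKY18 was 4.74-fold higher (4.45 to 5.03), whereas WRKY54, a close relative of WRKY70, was 3.49-fold lower (2.94 to 4.16). CAMTA3, a calmodulin-binding factor that holds defence genes down, was 3.65-fold higher (3.52 to 3.79), with 77.0 RPKM in mp clv3 against 21.1 RPKM in WT. Of the 15 transcription factor genes listed beside SARD1 and CBP60G, 11 were called higher, against 9.85% of all models, and 1 lower, against 21.3%. The median log2 ratio of the 14 genes with more than 6 reads in either genotype was 1.94.

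PAD4 differed far more than its partner EDS1. EDS1 (AT3G48090, chromosome 3, 17755329 to 17758147, minus strand, 4 exons) encodes the lipase-like protein at the core of this signalling node. EDS1 had 11224 reads and 50.8 RPKM in mp clv3 against 6260 reads and 28.7 RPKM in WT, a ratio of 1.77 (1.69 to 1.85) that was short of the 2-fold criterion. PAD4 (AT3G52430, chromosome 3, 19431095 to 19434450, plus strand, 2 exons), which encodes its lipase-like partner, had 20791 reads and 104 RPKM in mp clv3 against 2016 reads and 10.2 RPKM in WT. The ratio for PAD4 was 10.2 (9.53 to 10.9). The level of PAD4 was above that of EDS1 in mp clv3 and below it in WT.

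The tandem relative of EDS1, AT3G48080, had the larger ratio of the tandem pair. It lies 138 bases from EDS1 and had 13.8 RPKM in mp clv3 against 1.92 RPKM in WT, a ratio of 7.17 (6.19 to 8.33). The transcripts align at 87.9% identity over 988 bases, so reads could in part be split between the copies. AT3G48080 also shares 503 bases with the opposite-strand gene AT3G48070, which had 3196 reads in mp clv3 against 2395 reads in WT. SAG101, which encodes the other partner of EDS1, was 3.24-fold higher (2.67 to 3.96).

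Helper immune receptors that act with these proteins were higher too, 4 of the 5 listed being called. ADR1, a helper that works with EDS1 and PAD4, had 36.4 RPKM in mp clv3 against 5.08 RPKM in WT, a ratio of 7.16 (6.63 to 7.75). Its relatives ADR1-L2 and ADR1-L1 were 3.98-fold (3.82 to 4.15) and 3.25-fold (3.13 to 3.37) higher. ADR1-L1 lies over an annotated opposite-strand transcript for 1944 bases. AT5G66910, annotated as a disease resistance protein, had a ratio of 1.84 (1.72 to 1.96) and was not called. Of the 8 genes listed beside EDS1 and PAD4, 6 were called higher, against 9.85% of all models, and 0 lower, against 21.3%. NDR1, which serves another class of immune receptors, had 13.2 RPKM in mp clv3 against 13.7 RPKM in WT.

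NPR1 was higher, and so were some of its relatives and partners. NPR1 (AT1G64280, chromosome 1, 23852748 to 23855658, minus strand, 4 exons) had 15544 reads and 59.6 RPKM in mp clv3 against 3195 reads and 12.4 RPKM in WT. The ratio for NPR1 was 4.80 (4.54 to 5.06), and the gene shares 214 bases with an annotated opposite-strand RNA. NPR3 and NPR4 encode related receptors that act as corepressors. NPR3 was 2.48-fold higher (2.32 to 2.65), and NPR4 had 24.5 RPKM in mp clv3 against 16.3 RPKM in WT and was not called.

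Of the 6 TGA factor genes, TGA1 was 3.38-fold (2.82 to 4.07) and TGA5 2.28-fold (2.06 to 2.54) higher. The other 4 were not called, where 9.85% of all models were called higher and 21.3% lower. TGA3, the TGA gene with most reads, had 28.0 RPKM in mp clv3 against 23.1 RPKM in WT. NIMIN2, which encodes a small NPR1-binding protein, was 2.43-fold higher (2.12 to 2.80). Of the 13 genes listed beside NPR1, 4 were called higher, beside 9.85% of all models, and 0 lower, beside 21.3%. Their log2 ratios were centred on a median of 0.37.

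The 3 pathogenesis-related genes had low levels in WT and large ratios. PR1 (AT2G14610, chromosome 2, 6241640 to 6242541, minus strand, 1 exon) encodes a secreted CAP-domain protein. PR1 had 562 reads and 7.15 RPKM in mp clv3 against 0 reads in WT, which allows a WT level of up to 0.0775 RPKM. Against a floor of 3 read pairs in WT, PR1 was at least 92.3-fold higher. PR2 (AT3G57260, chromosome 3, 21188397 to 21189967, minus strand, 2 exons) encodes a glucanase that cuts glucans of fungal cell walls. PR2 had 23354 reads and 181 RPKM in mp clv3 against 18 reads and 0.141 RPKM in WT, a ratio of 1279 (674 to 2798). PR5 (AT1G75040, chromosome 1, 28177670 to 28179022, plus strand, 2 exons) encodes a thaumatin-like protein. PR5 had 1487 reads and 14.7 RPKM in mp clv3 against 52 reads and 0.521 RPKM in WT, a ratio of 28.2 (19.1 to 43.5). In mp clv3 PR2 stood far above PR5 and PR1, and PR1, the best known marker, had the lowest level of the 3.

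Stretches upstream of PR2 and PR5 are shown because these genes were higher together in mp clv3 and because salicylate-responsive elements are known from such promoters. They come from the RefSeq assembly TAIR10.1, written 5′ to 3′ on the strand of the gene. Capitals mark TTGACC or TTGACT (the W-box of WRKY factors), TGACG (the core bound by TGA factors) and GAAATTT (a motif bound by SARD1 and CBP60G), each searched on both strands. The PR2 stretch is chr3:21190218-21190467 (minus strand, 500 to 251 bases before the annotated start) and PR5 is chr1:28177250-28177519 (plus strand, 420 to 151 bases before).
PR2: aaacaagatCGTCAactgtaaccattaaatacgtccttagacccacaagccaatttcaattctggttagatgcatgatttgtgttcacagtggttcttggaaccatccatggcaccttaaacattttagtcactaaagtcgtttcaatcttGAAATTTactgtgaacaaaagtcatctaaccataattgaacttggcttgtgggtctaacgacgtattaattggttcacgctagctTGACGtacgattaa
PR5: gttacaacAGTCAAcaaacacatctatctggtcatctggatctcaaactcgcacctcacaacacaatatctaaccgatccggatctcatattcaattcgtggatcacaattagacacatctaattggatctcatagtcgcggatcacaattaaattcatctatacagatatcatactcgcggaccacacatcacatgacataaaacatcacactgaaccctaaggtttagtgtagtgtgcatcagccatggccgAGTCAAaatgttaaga

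The PR2 stretch holds 2 TGACG cores and 1 GAAATTT, and the PR5 stretch holds 2 W-boxes. Over the whole 1000 bases upstream, EDS5 had 4 W-boxes, a number that 4.70% of 26634 protein-coding promoters reached, and PR5 had 3, a number that 13.5% reached. PR2 had 3 GAAATTT matches, and 3.27% of promoters had as many. ICS1 and EDS1 had 2 GAAATTT matches each, as had 12.0% of promoters or more. SARD1 had 3 TGACG cores, a number reached by 7.11%. In PR2, EDS1 and SARD1, 2 of these matches overlap on opposite strands. None of the motifs was found in that window of PAD4 or NPR1. The windows were not cut at neighbouring genes. AT3G48100 lies 279 bases upstream of EDS1, so both EDS1 GAAATTT matches (504 to 497 bases upstream) fall beyond that gap. The same holds for its TGACG core (293 to 289 bases upstream). The PAD4 window also runs past the 835 bases to its upstream neighbour.

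Over all 10 genes the motifs were about as frequent as in other promoters. W-boxes lay in 7 of 10, against 67.4% of all promoters, TGACG in 6 of 10, against 54.1%, and GAAATTT in 4 of 10, against 38.3%. A match is a run of letters and no evidence of binding.

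The genes that flank PR5 went the opposite way. PR5 lies between TLP-3 (AT1G75030) and AT1G75050, which encode thaumatin-like proteins too. TLP-3 had 2.49 RPKM in mp clv3 against 163 RPKM in WT, 65.3-fold lower (54.4 to 79.1). AT1G75050 had 0.300 RPKM in mp clv3 against 26.5 RPKM in WT, 88.2-fold lower (48.2 to 164). Both align to PR5, TLP-3 at 77.5% identity over 788 bases and AT1G75050 at 78.6% over 686 bases. None of the 10 genes matched another place in the genome over 100 bases or more at 95% identity or more.

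PR2 stands beside other glucanase genes that had few reads. BG1, its neighbour on one side, had 64 reads in mp clv3 against 0 reads in WT, at least 10.5-fold higher, and BG3 had 4 reads in each genotype. PRB1, the basic relative of PR1, had 0 reads in both. OSM34, a thaumatin-family gene elsewhere in the genome, had 34.1 RPKM in mp clv3 and 0 reads in WT, at least 602-fold higher.

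The shares of each family called were set beside those of all models, 9.85% higher and 21.3% lower. By RefSeq description, 3 of 21 CAP genes, 4 of 37 glucanase-type genes and 2 of 21 thaumatin-type genes (PR5 and OSM34) were called higher. Called lower were 5 CAP genes, 12 glucanase-type genes and 5 thaumatin-type genes, and the higher shares were 14.3%, 10.8% and 9.52% in the same order, near that of all models. The median log2 ratios were -1.66 over the 8 CAP genes with more than 6 reads in either genotype, -0.28 over 33 glucanase-type genes and -0.59 over 20 thaumatin-type genes.

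**Figure D2:**
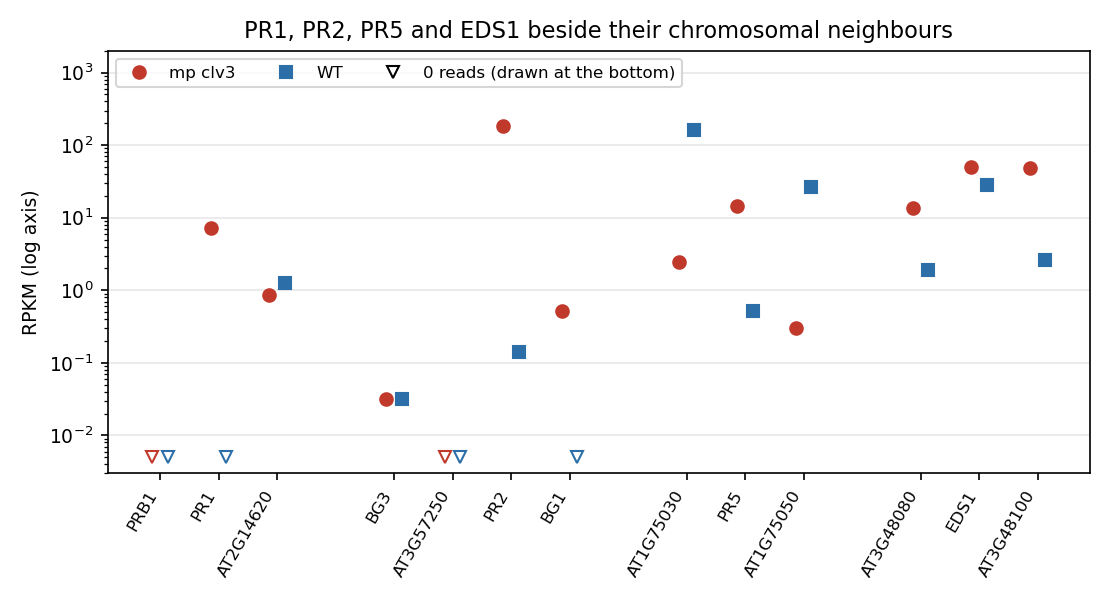
RPKM on a log axis of PR1, PR2, PR5 and EDS1 with genes beside them on the chromosome, in mp clv3 (red circles, left) and WT (blue squares, right); open triangles at the bottom stand for 0 reads. PR5 sits at 14.7 RPKM in mp clv3 between AT1G75030 and AT1G75050, whose WT points (163 and 26.5 RPKM) are the high ones, and PR2 at 181 RPKM in mp clv3 stands far above the glucanase genes beside it.

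Across the 20 nearest neighbours of the 10 genes, 5 were called higher and 2 lower, the lower ones being those of PR5, where 9.85% of all models were called higher and 21.3% lower. Of the other 13, 6 had at most 4 reads in either genotype, too few for a ratio. EDS1 had called neighbours on both sides, AT3G48080 and the cytokinin response regulator gene ARR5 (AT3G48100), which had 47.8 RPKM in mp clv3 against 2.59 RPKM in WT. Neither neighbour was called at ICS1, EDS5, CBP60G, PAD4 or PR1.

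Genes that modify salicylate were mostly higher, with log2 ratios centred on a median of 2.85. Of 7 listed, 6 were called higher, against 9.85% of all models, and 0 lower, against 21.3%. BSMT1, which makes volatile methyl salicylate, had 28.5 RPKM in mp clv3 against 0.441 RPKM in WT, a ratio of 64.6 (45.6 to 94.6). MES9, an esterase that frees salicylate from that ester, had a ratio of 7.20 (4.64 to 11.7). The genes that make and that cleave the ester were thus both higher. BSMT1 shares 79 bases with an opposite-strand gene.

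Glucosyltransferase and hydroxylase genes of salicylate followed the same direction with 1 exception. UGT74F2 was 9.12-fold higher (7.72 to 10.8), while its tandem relative UGT74F1 had 1.27 RPKM in mp clv3 against 1.92 RPKM in WT. These relatives align at 85.8% identity over 748 bases, so reads could be split between them. UGT74F1 also shares 356 bases with an annotated opposite-strand RNA. It shares 50 bases with the opposite-strand gene AT2G43850, which had 1501 reads in mp clv3 against 1048 reads in WT. UGT76B1, whose product glucosylates salicylate and isoleucic acid, was 8.84-fold higher (4.99 to 15.7). DMR6, which hydroxylates salicylate, was 6.42-fold higher (5.90 to 6.98), from 8379 reads in mp clv3 against 1287 reads in WT.

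Genes of systemic signalling gave few values. Of the 5 listed, ALD1 and FMO1, which make the signal N-hydroxypipecolate, had 0 reads in both genotypes, so no ratio can be given. DIR1, which encodes a lipid transfer protein, was 1.81-fold lower (1.73 to 1.90) and not called, with 93.6 RPKM in mp clv3 against 170 RPKM in WT. The whole annotated span of DIR1, 813 bases, overlaps the opposite-strand gene AT5G48480, which had 49267 reads in mp clv3 against 35153 reads in WT. AZI1, which acts in systemic priming, was called higher, with 66 reads in mp clv3 against 0 reads in WT, at least 10.8-fold higher. The remaining listed gene, AT5G52810, had 13.1 RPKM in mp clv3 against 8.01 RPKM in WT. Its ratio was 1.63 (1.46 to 1.82), and it was not called.

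Other response genes differed in both directions. PNP-A, which encodes a secreted peptide, had 78.7 RPKM in mp clv3 against 2.03 RPKM in WT, a ratio of 38.8 (30.9 to 48.7). AED1, an apoplastic protease gene that depends on EDS1, had 181 RPKM in mp clv3 against 5.64 RPKM in WT, a ratio of 32.2 (29.4 to 35.2). GRX480, a glutaredoxin gene induced through TGA factors, was 24.7-fold higher (16.9 to 37.4). ACD6, which encodes an ankyrin membrane protein that promotes salicylate build-up, was the reverse. It had 12 reads in mp clv3 against 1166 reads in WT, 98.6-fold lower (45.0 to 270). BIP1, a chaperone gene of secretion, had 132 RPKM in mp clv3 against 182 RPKM in WT. Of the 11 response genes beside PR1, PR2 and PR5, 6 were called higher, against 9.85% of all models, and 1 lower, against 21.3%.

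Over all 66 pathway genes beyond the 10, 34 were called higher, against 9.85% of all models, and 4 lower, against 21.3%. The median log2 ratio of the 63 genes with more than 6 reads in either genotype was 1.17. The 4 lower genes were ICS2, PAL4, WRKY54 and ACD6. PBS3, EPS1, AT4G31000, AT2G24300, AT2G18750, CBP60A, WRKY54, SAG101, NDR1, NPR4, UGT74F1, ALD1, FMO1, AZI1 and AT5G52810 were singled out after their values had been seen.

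**Figure D3:**
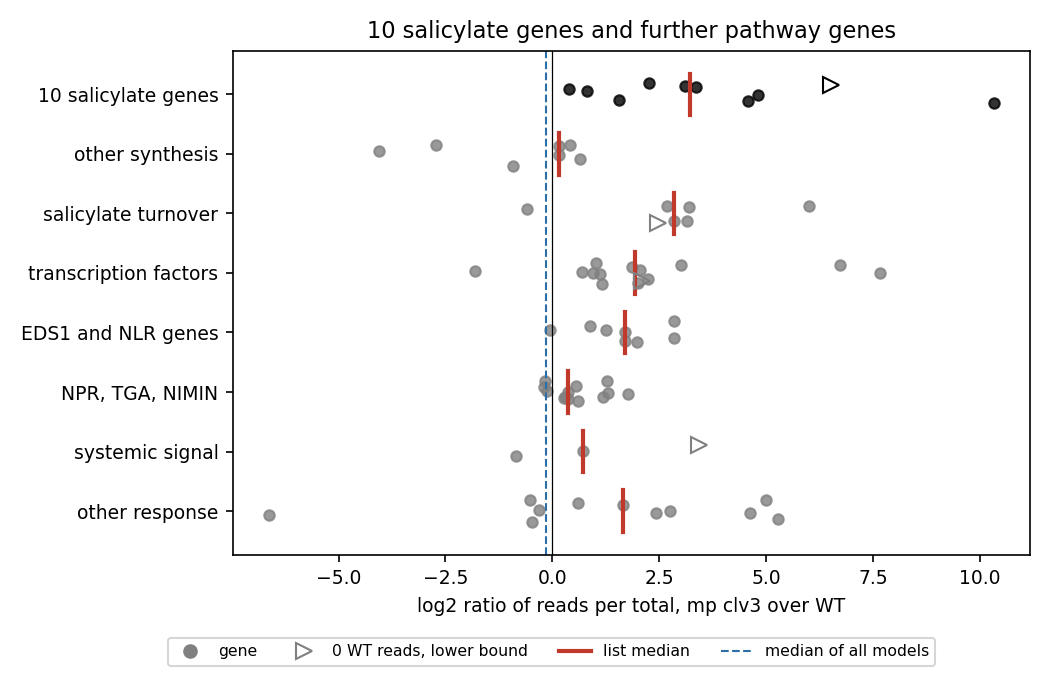
log2 ratio of reads per total, mp clv3 over WT, for the 10 salicylate genes (black) and 7 lists of further pathway genes (grey); each point is a gene, open triangles are lower bounds for genes with 0 reads in WT, red bars are list medians and the dashed line is the median of all models (-0.15). The turnover list (median 2.85) and the transcription factors (1.94) sit to the right, while the further synthesis genes (0.16) lie around 0.

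Whole apices were measured, so fewer cells of a type and less RNA per cell cannot be told apart. All 4 meristem markers (STM, WUS, CLV3 and CLV1) were called higher, where 9.85% of all models were, and CLV3 is itself a mutated gene. Their summed level was 296 RPKM in mp clv3 against 87.4 RPKM in WT. Most of that sum came from STM, with 217 RPKM in mp clv3 against 68.8 RPKM in WT. Of the 3 floral markers measured, LFY had 27.4 RPKM in mp clv3 against 16.9 RPKM in WT. The other 2, AP1 and AP3, had 0.158 and 0.0187 RPKM in mp clv3 against 114 and 93.1 RPKM in WT. Of the 3 tapetum markers, ATA1 and MS2 had 0 reads in mp clv3, and the summed level was 0.0971 RPKM in mp clv3 against 157 RPKM in WT. Leaf mesophyll markers summed to 1855 RPKM in mp clv3 against 4221 RPKM in WT, and none of the 3 was higher. Most of the mp clv3 sum was CAB1, which was 1.30-fold lower and not called, while RBCS3B and RBCS2B were 17.4-fold and 48.2-fold lower. Summed levels were also lower in mp clv3 for phloem (22.6 against 41.2 RPKM), xylem (14.5 against 57.5 RPKM), guard cells (8.38 against 12.5 RPKM) and epidermis (250 against 768 RPKM). The xylem sum rests on XCP2, with 12.8 RPKM in mp clv3 against 56.3 RPKM in WT, while VND7 had 1.62 RPKM in mp clv3 against 1.25 RPKM in WT. The guard cell sum rests on FAMA, with 8.33 RPKM in mp clv3 against 11.2 RPKM in WT, while MYB60 was 26.0-fold lower (8.58 to 129). The trichome marker GL1 had 0.507 RPKM in mp clv3 against 0.543 RPKM in WT. The part of these tissue differences in the salicylate results was not tested.

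Among all models, the ratios of the 10 genes spread over a wide range. By the ratio in the authors' deposited table, 19525 models with at least 1 RPKM in either genotype were ranked, of which 11.0% were called higher and 18.6% lower. PR2 ranked 18 from the top, and PR1 ranked 20 with its 0 WT reads entered as 0.5. PR5 ranked 267, CBP60G 301, PAD4 534, EDS5 604, NPR1 934 and SARD1 1429. EDS1 ranked 2602 and ICS1 4931, so the first enzyme of the branch had the smallest ratio of the group.

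**Figure D4:**
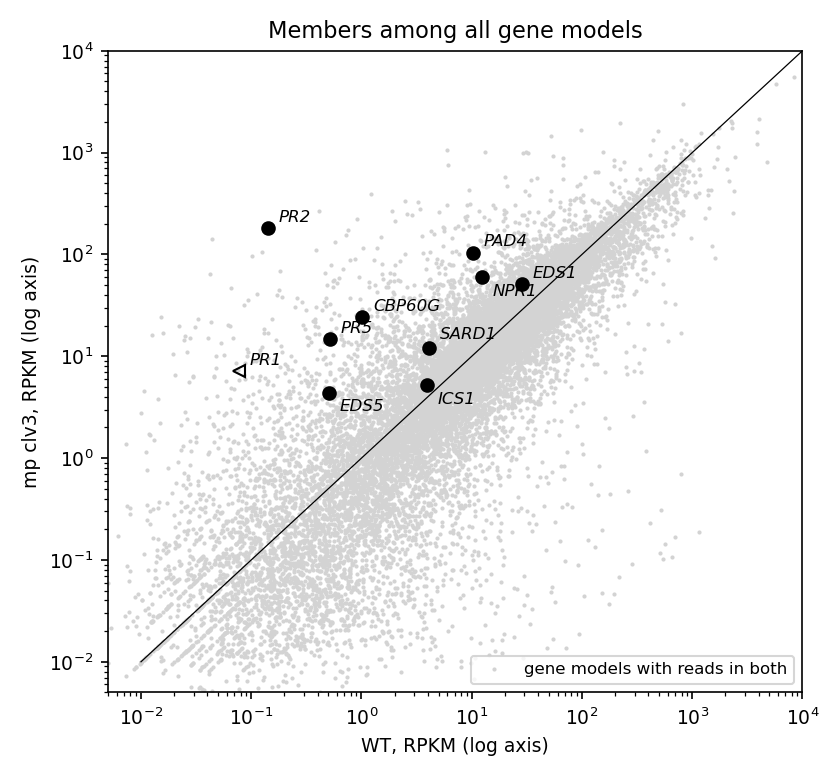
RPKM in mp clv3 (vertical, log axis) against WT (horizontal, log axis) for gene models with reads in both columns (grey), with the 10 salicylate genes in black and the line of equality; the open triangle places PR1 at its WT upper limit of 0.0775 RPKM. PR2 and PR1 stand at the upper left edge of the cloud, whereas ICS1 and EDS1 lie inside it near the line.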

How the data were processed

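Polyadenylated RNA was purified and sequenced from strand-specific libraries as paired reads of 100 bases, per the labels' protocols. Per the submitters' processing notes, CASAVA 1.7, BWA and TAIR10 were used, in roles not stated. How reads with several matches were counted is not stated either. The deposited read numbers are whole, with 0 entered as 0.5, and were treated as estimated counts after 0 was restored. The first of 27323 models was dropped, since its cells did not line up with the header. RPKM values were deposited by the authors and scale these reads by model length and total. The deposited log2 ratio is that of the RPKM columns. The deposited FDR is an adjusted p-value whose test is not named.

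Fold differences are ratios of reads per column total, with exact Clopper-Pearson 95% intervals on read pairs (reads divided by 2, rounded up, since even read numbers prevailed: in mp clv3, 717 models had 2 reads, 99 had 1 and 88 had 3). Intervals and floors cover counting error only, and PCR duplicates could not be identified or taken into account. The procedure was tested on simulated data. With 0 reads in 1 genotype, the ratio is taken against 3 read pairs there and given as "at least". No ratio is given where both genotypes had 6 reads or fewer. A replicate test was planned only if values per library existed, and for 1 column per genotype the plan was to use the authors' FDR for calls. The members and lists were chosen with earlier results of these data known. Named genes are the members, MP and CLV3, relatives and neighbours of members, and from each list the 4 called genes with the largest ratio at 1 RPKM or more plus the 1 with most reads otherwise. RefSeq held the listed symbol for 107 of 118 genes, and the others are given by locus. A floral marker was not analysed here. Coordinates and promoters come from the RefSeq assembly TAIR10.1, as the table holds no coordinates. The upstream sequence of PR1 is not reported here. Copies were sought with blastn 2.17.0. Alternatives were TMM scaling from edgeR 4.0.16, median-of-ratios scaling, a total without the 100 models with most reads, pseudocounts of 0.1, 1 and 5 RPKM, an RPKM minimum of 1, other fold and FDR criteria, and whole intervals beyond 2-fold (Python 3.11.15, scipy 1.17.1).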

Additional observations from a re-analysis of the deposited data

How the results depend on the processing

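No paired analysis was possible because the table holds 1 column per genotype with no replicate number, and for the same reason no replicate could be left out. The number of the 10 genes called higher was 8 throughout, except 6 with a pseudocount of 5 RPKM (without EDS5 at a log2 ratio of 0.77 and SARD1 at 0.91), 9 with a 1.5-fold criterion and 7 with a 4-fold criterion, and the number called lower was 0 in each alternative. All 70 log2 ratios of the 10 genes under 7 settings of scaling, pseudocount and filter were above 0. That gives no check of direction, since a pseudocount or an RPKM filter cannot change the sign of a ratio. Of the scalings, TMM moved every log2 ratio up by 0.09, median-of-ratios scaling by 0.10 and the reduced total by 0.00. A pseudocount of 1 RPKM gave median log2 ratios of 2.60 for the 10 genes and 0.90 for the 63 further pathway genes above the read floor. A pseudocount of 5 RPKM gave 1.56 and 0.61, with 21 of the further genes called higher and 1 lower. A pseudocount draws ratios of genes with low levels towards 0 by construction. For the further genes, the 4-fold criterion gave 21 higher and the 1.5-fold criterion 7 lower. The share of all models called was not computed under the other fold criteria or the pseudocounts. Counts under those settings therefore have no background beside them and only show how the calls shift. PR1, PR2, PR5 and EDS5 had from 0 to 105 reads in WT, which limits how well the sizes of their ratios are known.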

Other observations

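Jasmonate-responsive genes were split. VSP1 and VSP2, storage protein genes induced by jasmonate, were 2.42-fold (2.40 to 2.44) and 4.20-fold (4.12 to 4.29) lower. LOX2, a plastid lipoxygenase gene of jasmonate synthesis, had 39.0 RPKM in mp clv3 against 207 RPKM in WT, 5.31-fold lower (5.16 to 5.47). JAZ1, a jasmonate repressor gene, was 5.50-fold higher (5.02 to 6.01), and the receptor gene COI1 had 22.4 RPKM in mp clv3 against 18.6 RPKM in WT. Defence genes usually assigned to jasmonate and ethylene were higher: PDF1.2, a defensin gene, had 472 reads in mp clv3 against 0 reads in WT, at least 77.5-fold. PR3, a chitinase gene, had a ratio of 10.6 (7.35 to 15.7) and lies over an opposite-strand transcript for 1579 bases. PR4, a hevein-like gene, had 1335 reads in mp clv3 against 94 reads in WT.

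Of 6 senescence-associated genes, 3 were called higher, against 9.85% of all models, and 1 lower, against 21.3%. SAG21 had 990 RPKM in mp clv3 against 29.3 RPKM in WT, 33.8-fold higher (31.8 to 36.0). SAG13 had 2544 reads in mp clv3 against 4 reads in WT. SAG12, the marker of late leaf senescence, had 2 reads in mp clv3 against 0 reads in WT. SAG29, a sugar transporter gene, had 0 reads in mp clv3 against 1182 reads in WT, at least 200-fold lower.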
